A study of Homo sapiens with 6 samples.

Results

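The 10 genes described here encode the cohesin ring (SMC1A, SMC3, RAD21, STAG1 and STAG2), its loader NIPBL, the releasing factors WAPL and PDS5A, and the establishment factors ESCO2 and CDCA5. They were taken by gene symbol from the 67130 genes of the expression table, leaving out alternative contigs, and each symbol matched 1 gene. Cohesin is a ring-shaped complex in which SMC1A, SMC3 and the kleisin RAD21 enclose DNA, with STAG1 or STAG2 bound to RAD21. The ring holds sister chromatids together from S phase until anaphase, and in interphase it extrudes the chromatin loops that end at CTCF sites. NIPBL loads the ring, WAPL with PDS5 proteins opens it, and ESCO2 and sororin (CDCA5) lock it on replicated DNA, so that the core is used throughout the cell cycle and the establishment factors mainly in dividing cells.

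RNA was sequenced from hTERT-RPE1-TOShOFD1 cells, human retinal pigment epithelial cells immortalised with telomerase that carry a lentivirus-delivered Tet-On hairpin against OFD1, a protein of centriolar satellites and the base of the cilium. All 6 samples came from this line, are called WT by their labels, and were grown in DMEM/F12 with serum. The 3 control samples are labelled Control, and no doxycycline dose is listed for them. The 3 OFD1-depleted samples received doxycycline at 200 ng/mL, which switches on the hairpin. Both groups are labelled 72 h. No sample had doxycycline without the hairpin, so an effect of the drug and of OFD1 loss cannot be told apart. The study calls its RNA-seq samples biological replicates, but the labels do not say whether they were separate cultures or whether the line is 1 clone, and the p-values measure the spread between these samples. Expression was given as FPKM, a fragment count scaled to transcript length and library size.

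OFD1 itself was listed at 3.34, 3.62 and 3.44 FPKM in control replicates 1 to 3 and at 0.795, 0.764 and 1.43 FPKM in OFD1-depleted replicates 1 to 3. The groups did not overlap, and the depleted mean was 28.7% of the control mean (log2 fold change -1.75, SE 0.255, limma adjusted p = 0.00085). The tissue label is Retina and the cell type label is epithelial cells. Of 10 retinal pigment epithelium markers, 6 were below 1 FPKM in all samples, among them TTR, listed at 0, and MITF and OTX2 passed the filter. SERPINF1 had 0.0900 to 1.11 FPKM, and BEST1 had 4.33 FPKM in OFD1-depleted replicate 2 and at most 0.0475 FPKM in the other samples, while 4 of 5 neural retina markers were listed at 0. Of 5 epithelial keratin and adhesion markers, KRT8 and KRT18 passed the filter. The other 3 were below 1 FPKM in all samples: KRT19 had at most 0.211 FPKM, CDH1 at most 0.0492 FPKM, and EPCAM was listed at 0. Summed FPKM ranged from 408302 to 414547 in control and from 433262 to 493510 in OFD1-depleted samples, of which mitochondrially encoded genes took 8.66% to 13.81% and 15.61% to 19.32%. The table holds no read counts, and only 16.2% to 24.5% of low values of single-exon genes lay within 0.02 of a whole multiple of 1 read, so the depth is unknown.

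OFD1-depleted replicate 2 stood apart from the other samples, and its values ran with mRNA length. The tested genes were divided by mRNA length into 5 groups of equal size. On the log2 scale its median difference from the control mean was 0.348 in the group of the shortest mRNAs and -0.434 in that of the longest. The same medians lay between 0.0266 and 0.0576 over the 5 groups in replicate 1, and between -0.0976 and -0.0432 in replicate 3. Most cohesin mRNAs are long: 7 of the 10 members fell in the group of the longest mRNAs, which starts at 5520 bases. All 10 members had their lowest OFD1-depleted value in this replicate, against 48.2% of all tested genes. For all 10 members it was also the lowest value of the 6 samples, a count not made for all genes. Against the mean of the other two OFD1-depleted replicates, NIPBL, with 10425 bases, differed by -0.877 on the log2 scale in this replicate, and CDCA5, with 2475 bases, by -0.171. The members' results below are therefore also given without OFD1-depleted replicate 2, as are the values of other genes that it moved most.

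CDCA5 and ESCO2, the factors that establish cohesion during replication, fell to 31.1% and 40.8% of the control mean. The core subunits RAD21 and SMC3 fell to 62.1% and 69.1%. SMC1A, at 71.8% of the control mean with no overlap between groups, did not pass the test (limma adjusted p = 0.0847). STAG1, STAG2, the loader NIPBL and the releasing factors WAPL and PDS5A had means of 84.8% to 94.5% of control and did not pass it either. In all, 4 of 10 members were lower at a limma adjusted p under 0.05, against 11.9% of the 12025 genes tested. None was higher, against 5.07% of genes tested, and with 6 samples none had a positive fold change. STAG2, NIPBL and WAPL turned positive without OFD1-depleted replicate 2 or with the length trend removed, and STAG1 with both. WAPL and STAG2 were also positive with array weights, and WAPL with quantile normalization. All 3 OFD1-depleted values lay below all 3 control values for 5 members, against 22.3% of genes tested. The median log2 fold change of the members was -0.375 with 6 samples and -0.188 without OFD1-depleted replicate 2, and that of all tested genes was -0.0318 and -0.0202. Without that replicate the same 4 members were lower, against 14.7% of 12044 genes tested. A trend on mRNA length was also subtracted from each sample, an alternative chosen after seeing the data. These 4 members were again lower, against 1476 lower and 1594 higher of 12000 genes tested. The median was then -0.166 for the members and 0.053 for all tested genes. In bulk samples, fewer cells of a type and less RNA per cell cannot be told apart.

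**Figure D1:**
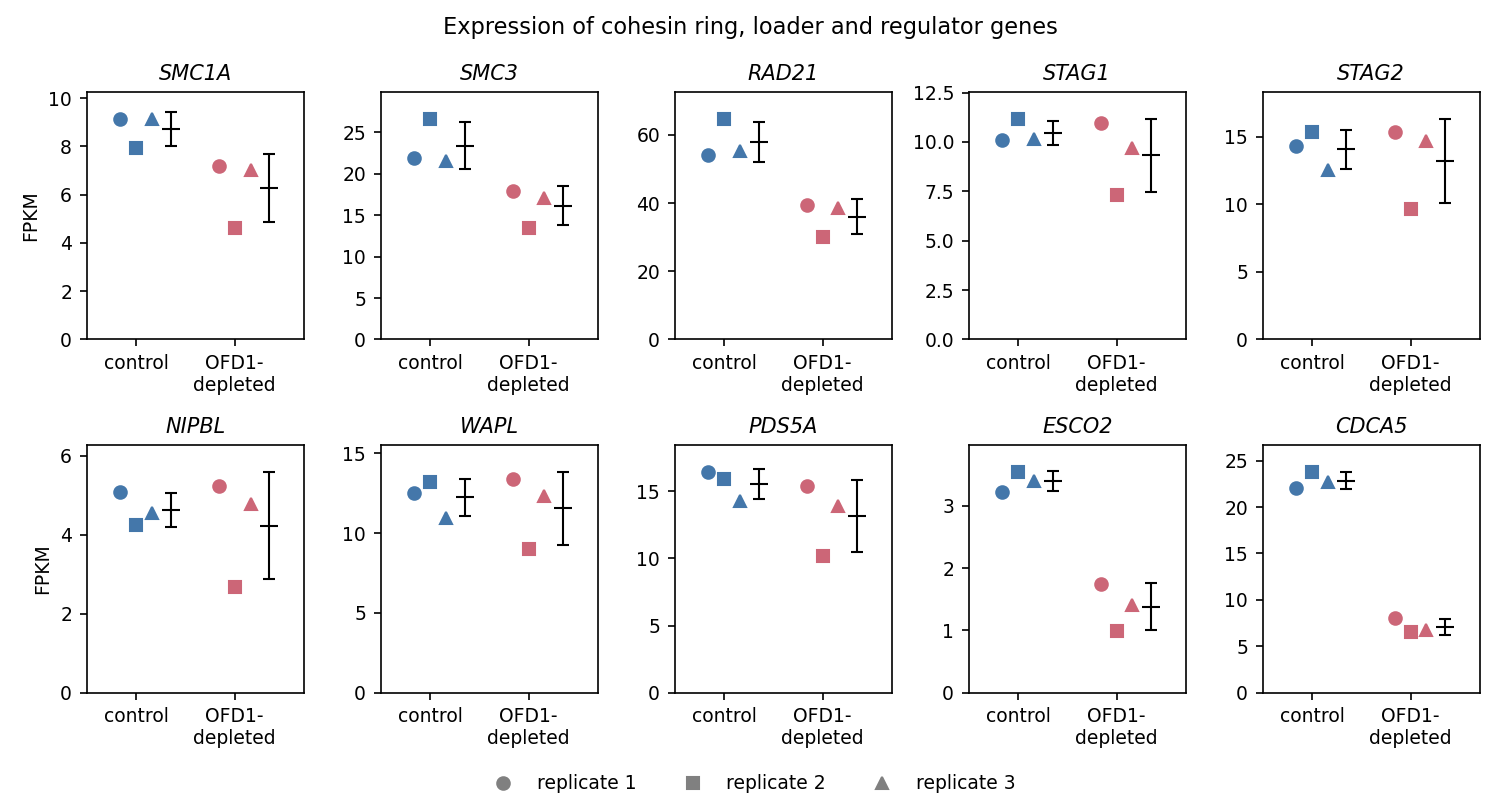
FPKM of each cohesin member in the 3 control and 3 OFD1-depleted samples, 1 point per sample, with the mean and SD of each group beside the points and each vertical axis starting at 0. CDCA5 and ESCO2 show the widest gap between groups, RAD21, SMC3 and SMC1A also do not overlap, and OFD1-depleted replicate 2 is the lowest of the 6 points in every panel.

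The establishment factors changed most. CDCA5, sororin, which binds acetylated cohesin and holds off WAPL until mitosis, had 22.0, 23.8 and 22.7 FPKM in control samples and 8.07, 6.53 and 6.72 FPKM in OFD1-depleted replicates 1 to 3. Every OFD1-depleted value was under every control value, with little spread in either group (22.9 ± 0.892 against 7.11 ± 0.841 FPKM, SD, n = 3 each). Its log2 fold change was -1.68 (SE 0.134, limma adjusted p = 2.23e-05) and -1.62 without OFD1-depleted replicate 2, and only 0.848% of tested genes had a lower fold change. ESCO2, the acetyltransferase that modifies SMC3 behind the replication fork, had 3.23, 3.55 and 3.40 FPKM in control samples and 1.75, 0.996 and 1.41 FPKM in OFD1-depleted replicates. Again no values overlapped (3.39 ± 0.161 against 1.38 ± 0.377 FPKM, SD, n = 3 each). The log2 fold change was -1.27 (SE 0.228, limma adjusted p = 0.00318) and -1.07 (adjusted p = 0.003) without OFD1-depleted replicate 2. ESCO2 shares 3017 bases with the oppositely oriented PBK, a mitotic kinase gene that had 37.1 FPKM in control samples and 15.2 FPKM in OFD1-depleted samples, and the strand setting of the counting is not stated.

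CDCA5 and ESCO2 both moved with the proliferation markers. All 8 of these markers (MKI67, TOP2A, PCNA, CCNA2, CCNB1, CDK1, BIRC5 and TYMS) were lower by the same test, against 11.9% of genes tested. Their summed level was 437.9 to 508.6 FPKM in control samples and 208.6 to 226.3 FPKM in OFD1-depleted samples, with 212.1 FPKM in replicate 2. The sum hides opposite shifts in that replicate. Of the OFD1-depleted samples it was the lowest for MKI67, TOP2A, CCNA2, CCNB1 and CDK1, and the highest for PCNA, BIRC5 and TYMS. MKI67 had 4.72 FPKM there, against 7.46 and 6.82 FPKM in replicates 1 and 3. The part of the share of dividing cells in the fall of CDCA5 and ESCO2 was not tested.

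Promoter sequence was examined because genes of the cell cycle are known to carry short control words near their start. E2F sites bind E2F factors, and the cell cycle homology region (CHR) binds the MuvB complex, which represses such genes in resting cells. RefSeq windows on GRCh38.p14, running from 250 bases before to 50 bases after the annotated start, were given for 8 members in 11 windows; RAD21 and ESCO2 had none. The words searched on both strands were TTTCCCGC, TTTCGCGC, TTTGCCGC and TTTGGCGC for E2F, TTTGAA and TTCGAA for CHR, and CCAAT. No word contains another. A match is a description of letters and not a bound site. The windows of the most reduced member (CDCA5), a reduced core member (SMC3), and a loader and a releasing factor that did not pass the test (NIPBL and WAPL) are shown 5′ to 3′ in the direction of transcription, with matched words in capitals. They lie at chr11:65083991-65084290 (minus strand), chr10:110567445-110567744 (plus strand), chr5:36876519-36876818 (plus strand) and chr10:86521743-86522042 (minus strand).
CDCA5: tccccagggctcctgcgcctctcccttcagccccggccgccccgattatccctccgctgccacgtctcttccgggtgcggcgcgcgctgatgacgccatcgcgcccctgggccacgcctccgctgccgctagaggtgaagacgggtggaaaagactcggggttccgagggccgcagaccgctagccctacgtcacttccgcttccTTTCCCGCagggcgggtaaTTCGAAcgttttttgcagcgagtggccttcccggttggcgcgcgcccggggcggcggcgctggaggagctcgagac
SMC3: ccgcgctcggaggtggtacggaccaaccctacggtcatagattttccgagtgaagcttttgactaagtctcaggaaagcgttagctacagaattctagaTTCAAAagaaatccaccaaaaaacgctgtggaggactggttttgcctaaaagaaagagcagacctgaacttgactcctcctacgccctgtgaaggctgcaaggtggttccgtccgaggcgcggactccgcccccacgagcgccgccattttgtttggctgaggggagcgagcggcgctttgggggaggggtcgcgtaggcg
NIPBL: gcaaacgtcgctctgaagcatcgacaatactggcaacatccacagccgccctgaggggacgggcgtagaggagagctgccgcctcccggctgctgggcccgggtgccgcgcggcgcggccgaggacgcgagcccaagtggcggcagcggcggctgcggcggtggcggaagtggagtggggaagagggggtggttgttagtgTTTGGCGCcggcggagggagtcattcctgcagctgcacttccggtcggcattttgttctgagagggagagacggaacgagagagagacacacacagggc
WAPL: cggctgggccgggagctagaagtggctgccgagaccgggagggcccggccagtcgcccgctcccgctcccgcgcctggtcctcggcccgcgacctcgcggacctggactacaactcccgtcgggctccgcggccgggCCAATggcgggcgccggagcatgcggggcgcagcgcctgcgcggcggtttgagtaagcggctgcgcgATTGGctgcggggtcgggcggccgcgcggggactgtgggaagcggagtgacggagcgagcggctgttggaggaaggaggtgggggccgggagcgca

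In the CDCA5 window the E2F word TTTCCCGC stood at -45 to -38 and the CHR word TTCGAA at -26 to -21, counted from the annotated start as 0. CDCA5 was the only member with both words in 1 window, a pair found in 0.427% of all 35116 windows. SMC3 held a CHR word at -151 to -146 on the opposite strand, where it reads as TTCAAA in the printed strand, and no E2F word. NIPBL held the E2F word TTTGGCGC at -49 to -42, and WAPL held CCAAT at -113 to -109 and, on the opposite strand, at -46 to -42. Among the 8 members, 5 had an E2F word in at least 1 window (CDCA5, NIPBL, SMC1A, STAG1 and STAG2), against 3.31% of all windows. CHR words were found in 2 members, against 16.4% of windows, and CCAAT in 4, against 34.6% of windows. Some members had several windows, so the shares are per window and the counts per gene. Of the 5 members with an E2F word, CDCA5 fell and the other 4 did not pass the test.

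**Figure D2:**
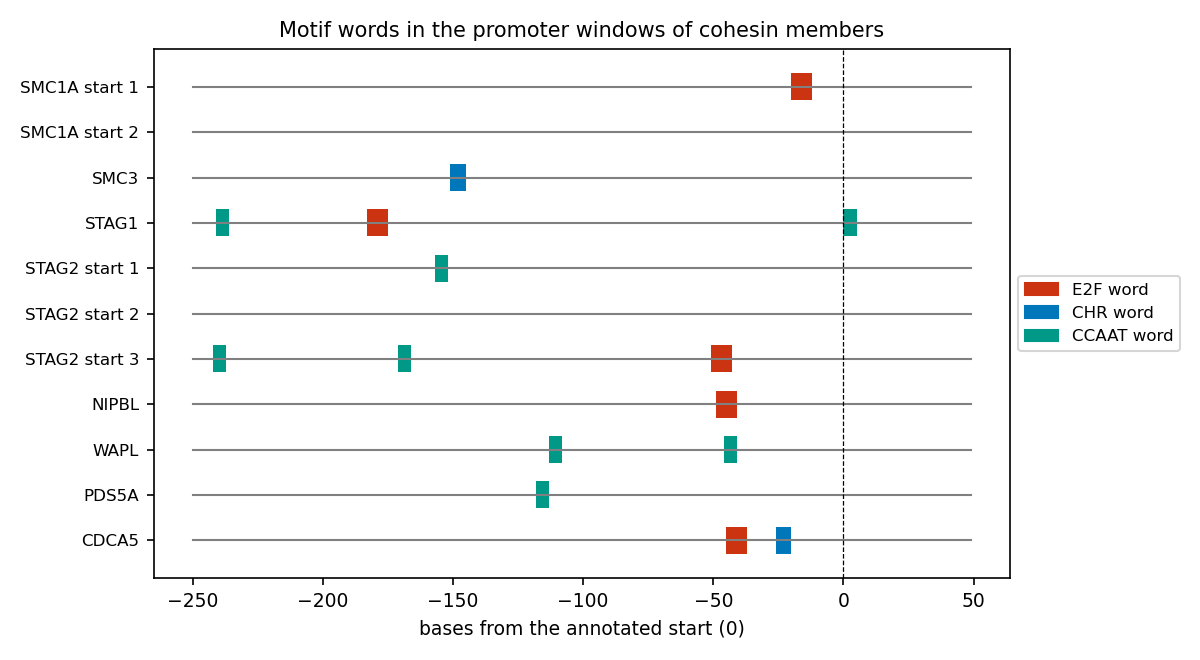
Position of E2F, CHR and CCAAT words in the 11 promoter windows of 8 cohesin members, in bases from the annotated start (0, dashed line), with 1 line per window. CDCA5 is the only line with an E2F and a CHR word, at -45 to -38 and -26 to -21, and E2F words also stand in lines of SMC1A, STAG1, STAG2 and NIPBL.

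Among the core subunits, RAD21 and SMC3 were lower, and SMC1A, STAG1 and STAG2 did not pass the test. RAD21, the kleisin that separase cleaves at anaphase, had 54.0, 64.8 and 55.2 FPKM in control samples and 39.5, 30.0 and 38.5 FPKM in OFD1-depleted replicates 1 to 3. No values overlapped, and the means were 58.0 ± 5.90 and 36.0 ± 5.22 FPKM (SD, n = 3 each). The log2 fold change was -0.69 (SE 0.145, limma adjusted p = 0.00755) and -0.57 (adjusted p = 0.00761) without OFD1-depleted replicate 2. RAD21 shares 3530 bases with the oppositely oriented UTP23, which had 3.82 FPKM in control samples and 1.97 FPKM in OFD1-depleted samples.

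SMC3, the ATPase subunit that ESCO2 acetylates, had 21.9, 26.7 and 21.5 FPKM in control samples and 17.9, 13.5 and 17.1 FPKM in OFD1-depleted replicates. The groups did not overlap (log2 fold change -0.53, SE 0.151, limma adjusted p = 0.0327), and without OFD1-depleted replicate 2 the values were -0.41 and 0.0409. This call was close to the threshold. For the log2 fold change of SMC3 the call was lost when any control replicate or OFD1-depleted replicate 3 was left out (adjusted p = 0.0777, 0.117 and 0.069 without control replicates 1 to 3, and 0.0542 without OFD1-depleted replicate 3). SMC1A, its partner ATPase, had 9.13, 7.92 and 9.15 FPKM in control samples and 7.17, 4.63 and 7.02 FPKM in OFD1-depleted replicates. These values did not overlap, but the log2 fold change of -0.49 (SE 0.18) did not pass the test (limma adjusted p = 0.0847), nor did -0.29 without OFD1-depleted replicate 2 (adjusted p = 0.104). With samples weighted by their fit it passed (adjusted p = 0.028).

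STAG1 and STAG2 are alternative subunits that place the ring on different chromatin sites. STAG2 had 14.3, 15.4 and 12.5 FPKM in control samples and 15.4, 9.65 and 14.6 FPKM in OFD1-depleted replicates (log2 fold change -0.11, SE 0.181, limma adjusted p = 0.718). STAG1 had 10.1, 11.1 and 10.2 FPKM in control samples and 11.0, 7.30 and 9.72 FPKM in OFD1-depleted replicates (-0.18, SE 0.163, adjusted p = 0.491). STAG1 shares 1661 bases with the oppositely oriented PCCB (16.2 and 14.9 FPKM in the groups). In both genes the groups overlapped, and replicate 2 alone lay below the control range of STAG2. Without it the log2 fold changes were 0.10 for STAG2 (adjusted p = 0.594) and -0.02 for STAG1 (adjusted p = 0.929).

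NIPBL, the loader, had 5.08, 4.25 and 4.55 FPKM in control samples and 5.24, 2.68 and 4.77 FPKM in OFD1-depleted replicates. OFD1-depleted replicate 1 was the highest of the 6 samples and replicate 2 the lowest, and the log2 fold change of -0.18 (SE 0.232, limma adjusted p = 0.651) became 0.11 (adjusted p = 0.579) without replicate 2. WAPL, which opens the ring in prophase and interphase, had 12.5, 13.2 and 11.0 FPKM in control samples and 13.4, 9.01 and 12.3 FPKM in OFD1-depleted replicates. Its groups overlapped (log2 fold change -0.10, SE 0.166, adjusted p = 0.741, and 0.07 without replicate 2). PDS5A, a scaffold bound by both WAPL and sororin, had 16.5, 15.9 and 14.3 FPKM in control samples and 15.4, 10.2 and 13.9 FPKM in OFD1-depleted replicates. Its groups overlapped too (log2 fold change -0.25, SE 0.163, adjusted p = 0.326, and -0.08 without replicate 2). The directions of NIPBL, WAPL and STAG2 thus rested on OFD1-depleted replicate 2.

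By control level per length of transcript, RAD21 stood first with a mean of 58.0 FPKM. SMC3 (23.4 FPKM) and CDCA5 (22.9 FPKM) followed with overlapping ranges. PDS5A (15.5 FPKM), STAG2 (14.1 FPKM), WAPL (12.2 FPKM) and STAG1 (10.5 FPKM) came next, and each of these overlapped its neighbour. SMC1A (8.73 FPKM), NIPBL (4.62 FPKM) and ESCO2 (3.39 FPKM) were each below the range of the gene before. In OFD1-depleted samples CDCA5 was at place 7 of 10 instead of 3, and ESCO2 remained at place 10.

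Ratios between genes of the same sample addressed whether members that work together changed unequally, since a scaling of the sample largely cancels in them. There were 8 ratios, each compared by a two-sided exact permutation test, for which 3 samples against 3 cannot give a p under 0.1. The adjusted p (Benjamini-Hochberg over the 8) was therefore 0.16 at best, and none passed a threshold of 0.05. CDCA5 relative to its opponent WAPL was 1.76, 1.80 and 2.07 in control and 0.603, 0.725 and 0.545 in OFD1-depleted samples, so that the less expressed gene of the pair was CDCA5 in every OFD1-depleted sample and WAPL in every control (log2 difference -1.58, exact p = 0.1). CDCA5 relative to the ring subunit SMC3 went from 0.985 ± 0.0834 to 0.443 ± 0.0459 (SD, n = 3 each, log2 difference -1.14, exact p = 0.1), with no overlap.

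ESCO2 relative to its paralogue ESCO1 was 0.984, 1.24 and 1.43 in control and 0.482, 0.470 and 0.390 in OFD1-depleted samples. The groups did not overlap (log2 difference -1.37, exact p = 0.1), and ESCO2 made up 54.6% of the summed FPKM of the pair in control and 30.9% in OFD1-depleted samples. RAD21 relative to SMC3 was slightly lower, 2.49 ± 0.0689 against 2.23 ± 0.0235 (SD, n = 3 each, log2 difference -0.159, exact p = 0.1). PDS5A relative to PDS5B was slightly higher, 3.45 ± 0.176 against 3.91 ± 0.141 (SD, n = 3 each, log2 difference 0.174, exact p = 0.1). Neither of these small shifts overlapped between groups. The ratios SMC1A to SMC3 (0.379 against 0.385, exact p = 1), STAG2 to STAG1 (1.34 against 1.41, exact p = 0.5) and NIPBL to MAU2 (0.572 against 0.477, exact p = 0.4) overlapped. Without OFD1-depleted replicate 2 the log2 differences were -1.69 for CDCA5/WAPL, -1.21 for CDCA5/SMC3, -1.42 for ESCO2/ESCO1, -0.158 for RAD21/SMC3 and 0.149 for PDS5A/PDS5B. That of NIPBL/MAU2 went from -0.279 to -0.068, that of SMC1A/SMC3 from 0.0392 to 0.116, and that of STAG2/STAG1 from 0.0692 to 0.115.

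**Figure D3:**
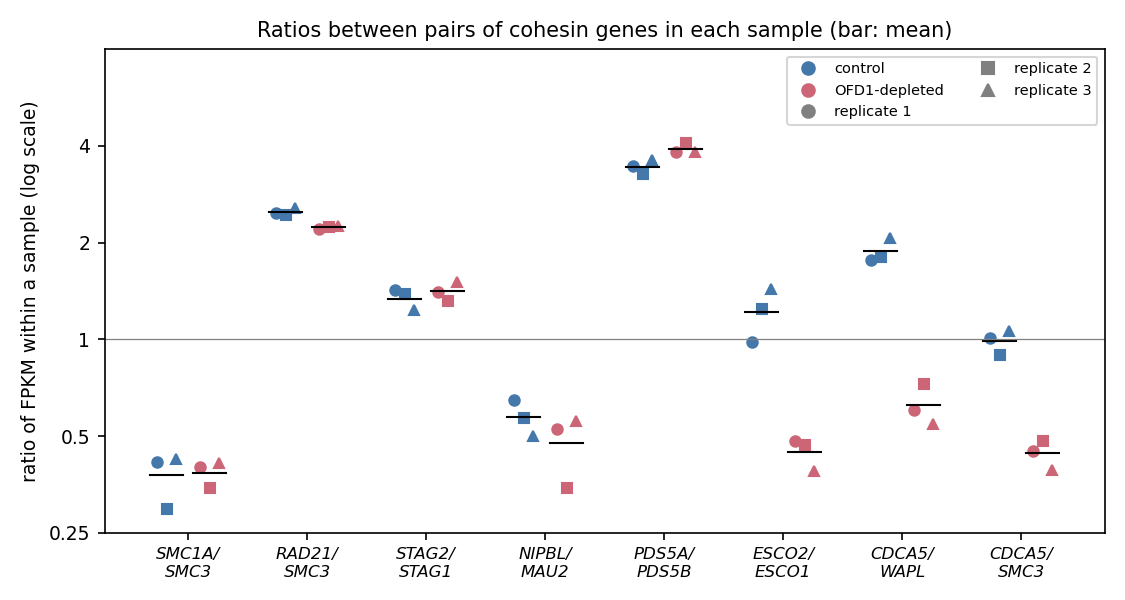
Ratio of the FPKM of 2 genes within each sample for 8 pairs, on a log axis, with 1 point per sample (colour for group, shape for replicate) and a bar for the group mean. CDCA5/WAPL, CDCA5/SMC3 and ESCO2/ESCO1 separate widely between groups, RAD21/SMC3 and PDS5A/PDS5B separate narrowly, and the other 3 ratios overlap.

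The wider cohesion pathway was followed in 24 partner genes, of which 21 passed the filter of a mean of 1 FPKM. In OFD1-depleted samples 13 of the 21 were lower and none was higher at a limma adjusted p under 0.05, against the 11.9% and 5.07% of all tested genes given above. None was higher at an unadjusted p under 0.05 either, a threshold for which no share of all genes was counted. Their median log2 fold change was -0.916. Without OFD1-depleted replicate 2 it was -0.957 and 14 were lower, TIPIN joining them (adjusted p = 0.044).

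Genes that protect or release cohesion in mitosis were lower in 8 of 8 cases. ESPL1, separase, the protease that cleaves RAD21, had 4.91, 4.88 and 5.51 FPKM in control samples and 1.14, 1.05 and 1.19 FPKM in OFD1-depleted replicates. This was the lowest fold change of the members and partners (log2 fold change -2.09, SE 0.181, limma adjusted p = 3.54e-05), and the groups did not overlap. Its inhibitor PTTG1, securin, went from 119 ± 18.6 to 62.7 ± 3.33 FPKM (SD, n = 3 each, log2 fold change -0.92, adjusted p = 0.00112). The shugoshins, which shield centromeric cohesin, had log2 fold changes of -1.22 for SGO1 (adjusted p = 0.0011) and -1.18 for SGO2 (adjusted p = 0.00069). The kinases PLK1 (-1.36), AURKB (-1.11), BUB1 (-1.54) and HASPIN (-1.52), which drive or limit the removal of cohesin from chromosome arms and centromeres, were also lower, with adjusted p from 2.41e-05 to 0.00146. Without OFD1-depleted replicate 2 all 8 genes were again lower, from -2.04 for ESPL1 to -0.96 for PTTG1.

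Replication fork factors that help to establish cohesion were lower in 4 of 7 cases. These were the helicase DDX11 (log2 fold change -0.90, limma adjusted p = 0.00304), the clamp loader subunit CHTF18 (-0.996, adjusted p = 0.00269), WDHD1 (-1.10, adjusted p = 0.0012) and the fork protection factor TIMELESS (-1.19, adjusted p = 0.00135). DSCC1 (-0.74, adjusted p = 0.0695), TIPIN (-0.38, adjusted p = 0.179) and CHTF8 (-0.18, adjusted p = 0.518) did not pass the test. Without OFD1-depleted replicate 2, CHTF8 was at -0.34 (adjusted p = 0.135), DSCC1 at -0.58 (adjusted p = 0.118), and the 4 lower genes at -1.08, -1.07, -1.03 and -0.90 for WDHD1, CHTF18, TIMELESS and DDX11. With 6 samples DSCC1 and TIPIN had no overlap between groups, and CHTF8 did.

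Of the 5 paralogues and direct partners, CTCF, the factor at which cohesin loops end, was lower. It had 8.24, 9.41 and 7.54 FPKM in control samples and 5.14, 4.91 and 5.41 FPKM in OFD1-depleted replicates (log2 fold change -0.69, SE 0.143, limma adjusted p = 0.00721), with no overlap and no low outlying value in replicate 2. MAU2, the partner of NIPBL (0.10, adjusted p = 0.692), ESCO1 (0.10, adjusted p = 0.807), PDS5B (-0.43, adjusted p = 0.171) and HDAC8, which removes the acetyl group from SMC3 (-0.13, adjusted p = 0.547), did not pass the test. Without OFD1-depleted replicate 2, CTCF was at -0.66 (adjusted p = 0.00764), PDS5B at -0.23, ESCO1 at 0.35, MAU2 at 0.18 and HDAC8 at -0.14, and the last 4 again did not pass. Of the meiotic subunits, REC8 was measured at 5.48 ± 0.96 and 5.33 ± 0.577 FPKM (SD, n = 3 each, adjusted p = 0.926), and SMC1B, STAG3 and RAD21L1 were below the filter.

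**Figure D4:**
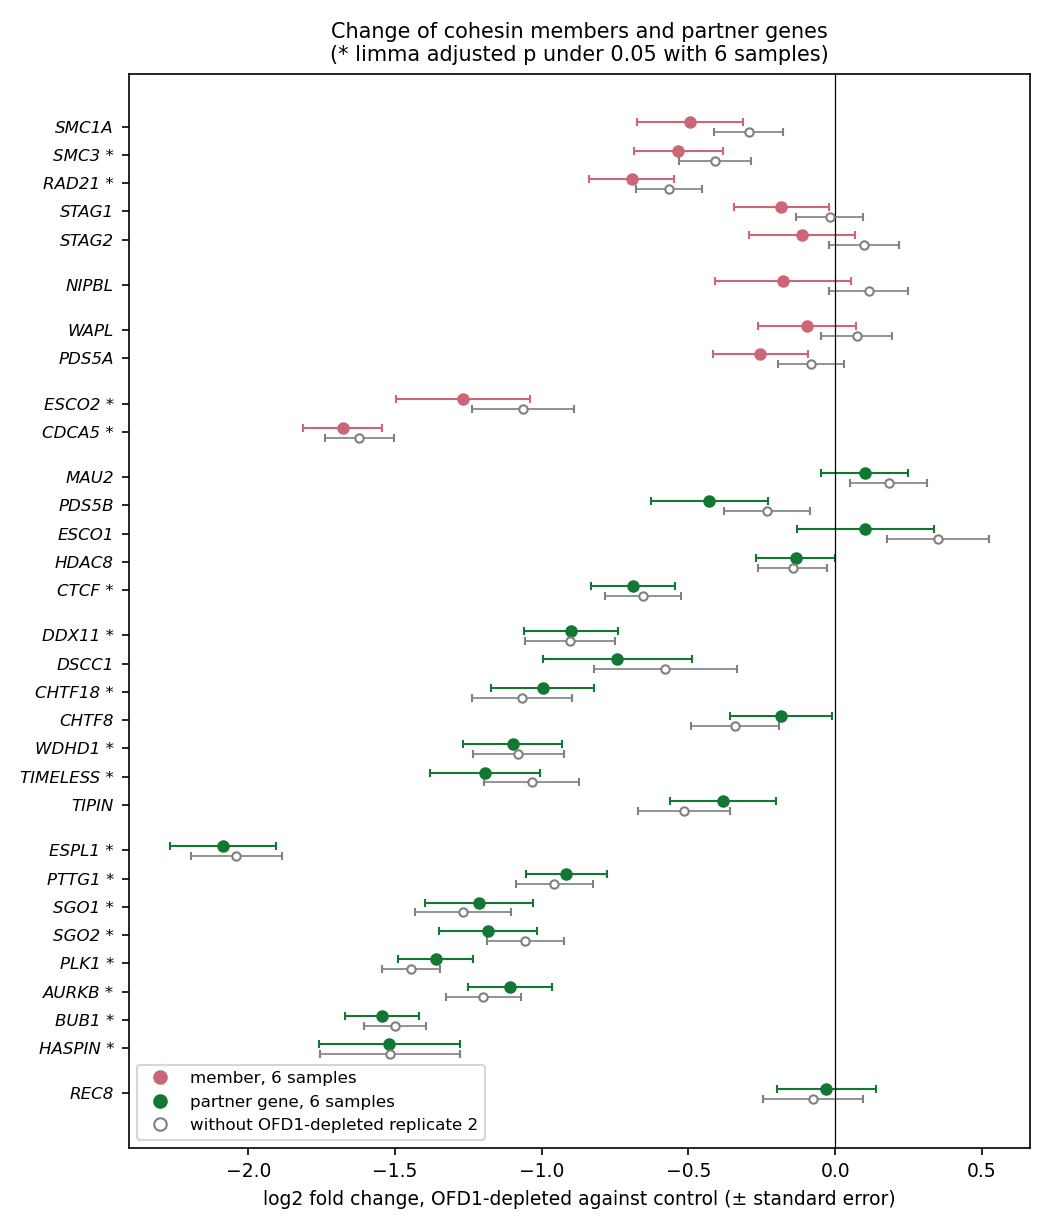
Log2 fold change (OFD1-depleted against control) with its standard error for the 10 members and the 21 tested partner genes, with 6 samples (filled) and without OFD1-depleted replicate 2 (open); a star marks a limma adjusted p under 0.05 with 6 samples. CDCA5 at -1.68 and ESCO2 at -1.27 lie among the mitotic partners, which run from -2.09 to -0.92, while STAG1, STAG2, NIPBL, WAPL and PDS5A lie between -0.25 and -0.10 and move toward or past 0 without that replicate.

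Other complexes that act on chromosomes are given for comparison, by counts and medians from the same limma fit. Among all tested genes 11.9% were lower, with a median log2 fold change of -0.0318 (-0.0202 without OFD1-depleted replicate 2). Of 8 condensin subunits, which compact mitotic chromosomes, 7 were lower, with a median log2 fold change of -1.14 (NCAPG -1.89, NCAPG2 -1.38 and NCAPH -1.51). Of 15 replication licensing genes, 13 were lower, with a median of -1.18 (MCM2 -1.50, MCM3 -1.25 and CDC6 -1.46). Of 8 tested genes of the SMC5/6 complex, another SMC machine that works in DNA repair, 3 were lower, with a median of -0.301 (NSMCE4A -0.67, SLF2 -0.94 and SLF1 -0.99). The log2 fold change of SLF1 did not pass when any control replicate was left out (adjusted p = 0.0709, 0.0632 and 0.0845 without replicates 1 to 3). The median of the cohesin members was -0.375. Without OFD1-depleted replicate 2 the medians were -0.188 for the cohesin members, -0.207 for SMC5/6, -1.05 for condensin and -1.15 for licensing, so the order of cohesin and SMC5/6 rested on that replicate.

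The genes lie on several chromosomes in GRCh38, as the table gives them. SMC1A is at chromosome X from 53374149 to 53422728 and STAG2 at chromosome X from 123960212 to 124422664. SMC3 is at chromosome 10 from 110567695 to 110606048 and WAPL at chromosome 10 from 86435256 to 86521792. RAD21 is at chromosome 8 from 116845934 to 116874776 and ESCO2 at chromosome 8 from 27771949 to 27812640. STAG1 is at chromosome 3 from 136336236 to 136752403, NIPBL at chromosome 5 from 36876769 to 37066413, PDS5A at chromosome 4 from 39822863 to 39977956 and CDCA5 at chromosome 11 from 65066300 to 65084164.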

How the data were processed

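Total RNA from 3 control and 3 OFD1-depleted samples was sequenced. The labels name both a TruSeq and a directional NEBNext kit, and their extraction text speaks of retinas although the samples are a cell line. The submitters' processing notes name HISAT2 2.0.5 and StringTie, with GRCh38, and the authors deposited 1 table of FPKM per gene and sample. Strand setting and depth are not given in the sources used here. The 6464 genes on alternative contigs were listed at 0.

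Genes averaging 1 FPKM or more over the 6 samples were tested on log2(FPKM + 0.1) with limma 3.58.1 (R 4.3.3), whose prior variance was allowed to follow mean expression. Tests were two-sided, with Benjamini-Hochberg adjustment over all 12025 genes and a threshold of 0.05. Fold changes are on the log2(FPKM + 0.1) scale, which understates changes of low genes. Ratios within a sample were compared by exact permutation (scipy 1.17.1). The code was tested on simulated data. No 2 samples held identical values. mRNA lengths were those of GENCODE v44 canonical transcripts, available for 12000 of the tested genes. The text names OFD1, all members and partners, and in each comparison list the 3 genes with the smallest p-values. PBK, CCDC25, UTP23 and PCCB were added after values were seen, for their overlap with members. The members and lists were chosen with earlier results of these data known. Alternatives covered the pseudocount, filter, scaling, variance model, replicate block and each replicate left out.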

Additional observations from a re-analysis of the deposited data

How the results depend on the processing

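Of 1061 recomputed values for 59 results under 20 alternatives, 1013 kept their direction and, where tested, their side of the threshold, or for counts of genes stayed within 1.5 times. The count of lower members was 3 to 5 in all alternatives but the one with no filter, and none of the 27 genes past the threshold reversed. CDCA5 passed in 20 of 20 alternatives (log2 fold change -1.82 to -1.54), ESCO2 in 19 of 19, RAD21 in 19 of 20 and SMC3 in 13 of 20 (adjusted p 0.0176 to 0.118). With no filter on low values 823 of 28501 tested genes were lower. Among them were 2 members, RAD21 (adjusted p = 0.0523) and SMC3 (0.118) being lost. With a filter at 5 FPKM, which drops low partner genes, 7 of 11 partners were lower, against 964 of 7883 genes tested. The labels do not say whether replicate numbers pair the samples, and the correlations were too weak to decide it. Deviations of samples of the same number correlated at 0.058, 0.048 and 0.011. Control replicates 1 and 2 correlated best with their own number, and control replicate 3 with OFD1-depleted replicate 2 (0.026). With the replicate number as a block, 4 members and 13 partners were lower, against 1534 of 12025 genes tested. Scaling to the same total moved the median of all genes by -0.144 and the higher share of calls from 29.9% to 11.9%; quantile normalization moved that share to 45.5% and removal of a trend on mRNA length to 51.9%, while no filter gave 1083 calls and array weights 3956, against 2039. Of the 27 reversals, 25 were in genes that did not pass the test and the rest in ratios within a sample. The cause of the reversals was not tested. The log2 fold change of REC8 was 0.024 with median-of-ratios scaling, 0.0778 with quantile normalization and 0.0501 with array weights; the log2 fold change of WAPL was 0.0022 with quantile normalization and 0.0301 with array weights; the log2 fold change of STAG2 was 0.0511 with array weights; and MAU2 (-0.0443) and ESCO1 (-0.0385) reversed with scaling to the same total. Removing a trend on mRNA length, chosen after seeing the data, gave 0.0814 for WAPL, 0.0312 for REC8, 0.0613 for STAG2 and 0.0553 for NIPBL; with OFD1-depleted replicate 2 also left out these were 0.14, 0.0035, 0.17 and 0.16, and STAG1 gave 0.0541. Leaving out each replicate in turn gave 3 to 4 members and 13 to 14 partners lower, a log2 fold change of ESCO1 of -0.0232 to 0.351, and log2 values of -2.02 to -1.61 for OFD1, -0.36 to 0.11 for NIPBL, -0.15 to 0.10 for REC8, -0.24 to 0.10 for STAG2, -0.21 to 0.0732 for WAPL and -0.13 to 0.13 for the ratio SMC1A/SMC3. Depth is unknown, so low genes such as ESCO2 carry no counting interval.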
